A study of Mus musculus with 6 samples.

Results

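The genes described here were 52 genes of DNA replication and mitosis, taken by symbol from a list out of the 19078 genes in a table of RNA-seq values from immortalized mouse fibroblasts (MF). All 52 symbols were found. The cells were fibroblasts with a conditional *Gpx4* -/- background that express the tamoxifen-dependent recombinase Cre-ERt2, and poly(A)-selected RNA was sequenced from 6 libraries. In 3 of these, *Ms4a15* OE, a CRISPR activation system with a guide to *Ms4a15* raised transcription of that gene in a pool of cells. The other 3 were controls, whose genotype is labelled wild type and which the methods of the study describe as infected with an empty lentivirus. Each gene had a single usable value, the authors' mean over all 6 libraries of its read count divided by a size factor for library depth. This mean joins both groups, so the values below are levels in these cells as a whole and no *Ms4a15* OE library was compared with a control library. They carry no SD and no test. *Ms4a15* itself had a mean of 638 normalized counts over both groups, which does not check the labels.

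Markers of fibroblasts were uneven in the same table. The 11 fibroblast markers summed to 452006 mean normalized counts, with *Col1a2*, a type I collagen chain, the most abundant at 135155. The intermediate filament gene *Vim* followed at 115135. The matrix proteoglycan genes *Lum*, at 0.675, and *Dcn*, at 12.1, were at or near 0, and *Pdgfra* had 278. Per kb of exon, the median of the 11 stood at percentile 59.7 of the expressed genes described below. *Vim* stood at 99.7, *S100a4* at 99.5, *Col1a2* and *Col1a1* at 98.7 and *Fn1* at 98.6. *Col3a1* was the median, followed by *Pdgfrb* at 58.1, *Thy1* at 56.0, *Pdgfra* at 14.2, *Dcn* at 0.874 and *Lum* at 0. All 7 epithelial markers together summed to 185 mean normalized counts, of which *Krt14* held 170, while *Epcam* had 0.176 and *Cdh1* 1.17. The 4 endothelial markers summed to 125, with *Cdh5* the most abundant at 107. Of 5 hematopoietic markers the 3 found summed to 186, with *Cd68* at 164 and *Ptprc* at 11.1, and of 4 muscle markers the 2 found summed to 127, with *Des* at 119.

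A dividing cell copies its genome in S phase and separates the copies in mitosis. In G1 the ring-shaped MCM helicase is loaded onto origins, a step named licensing, and in S phase helicase activation, the PCNA clamp and the replicative polymerases copy the DNA. Cyclins bound to cyclin-dependent kinases order these steps. The genes for many of these proteins are transcribed in waves, under E2F factors before and during S phase and under MuvB complexes toward mitosis.

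The replication and mitosis genes were among the more highly expressed genes of these fibroblasts. The 52 members are 0.273% of the genes in the table and held 1.31% of the summed mean normalized counts. To compare genes of different size, each mean was divided by the length in kilobases (kb) of the gene's annotated exons, overlaps counted once. The median member had 1881 mean normalized counts per kb. The background, 10637 genes with an exon length and a mean of at least 10, had a median of 286 per kb and a 90th percentile of 1843 per kb. All 52 members lay above the background median, and 27 of them lay in its highest 10%. The median member stood at percentile 90.2 of the background.

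Levels of the members spanned 18.2-fold per kb. The sliding clamp gene *Pcna* was highest at 7006 per kb, and *Gins3*, a subunit of the GINS complex of the active helicase, was lowest at 385 per kb. With coding length *Ccnd2* was highest, at 27072 per kb, and *Pole* lowest, at 834.5 per kb, and with exon bases not shared with another gene *Cdk4* was highest. Without length correction, *Top2a* had the highest mean, 47531 normalized counts, and *Gins3* the lowest, 1042. Between 5541 and 324183 reads stood behind each member's mean, a range bounded with the lowest and the highest size factor. The 95% Poisson interval on such a number of reads spans 2.67% to either side for *Gins3* and 0.391% for *Top2a*, and it covers counting error only. Gene length moved the values more than counting did. There were 4 definitions of length: all exons, the longest transcript, the coding part, and exon bases not shared with another gene. Over these, the median of the members' per kb spans was 2.41-fold, and 34 members spanned more than 2-fold. Levels below use all annotated exons unless another length is named.

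**Figure D1:**
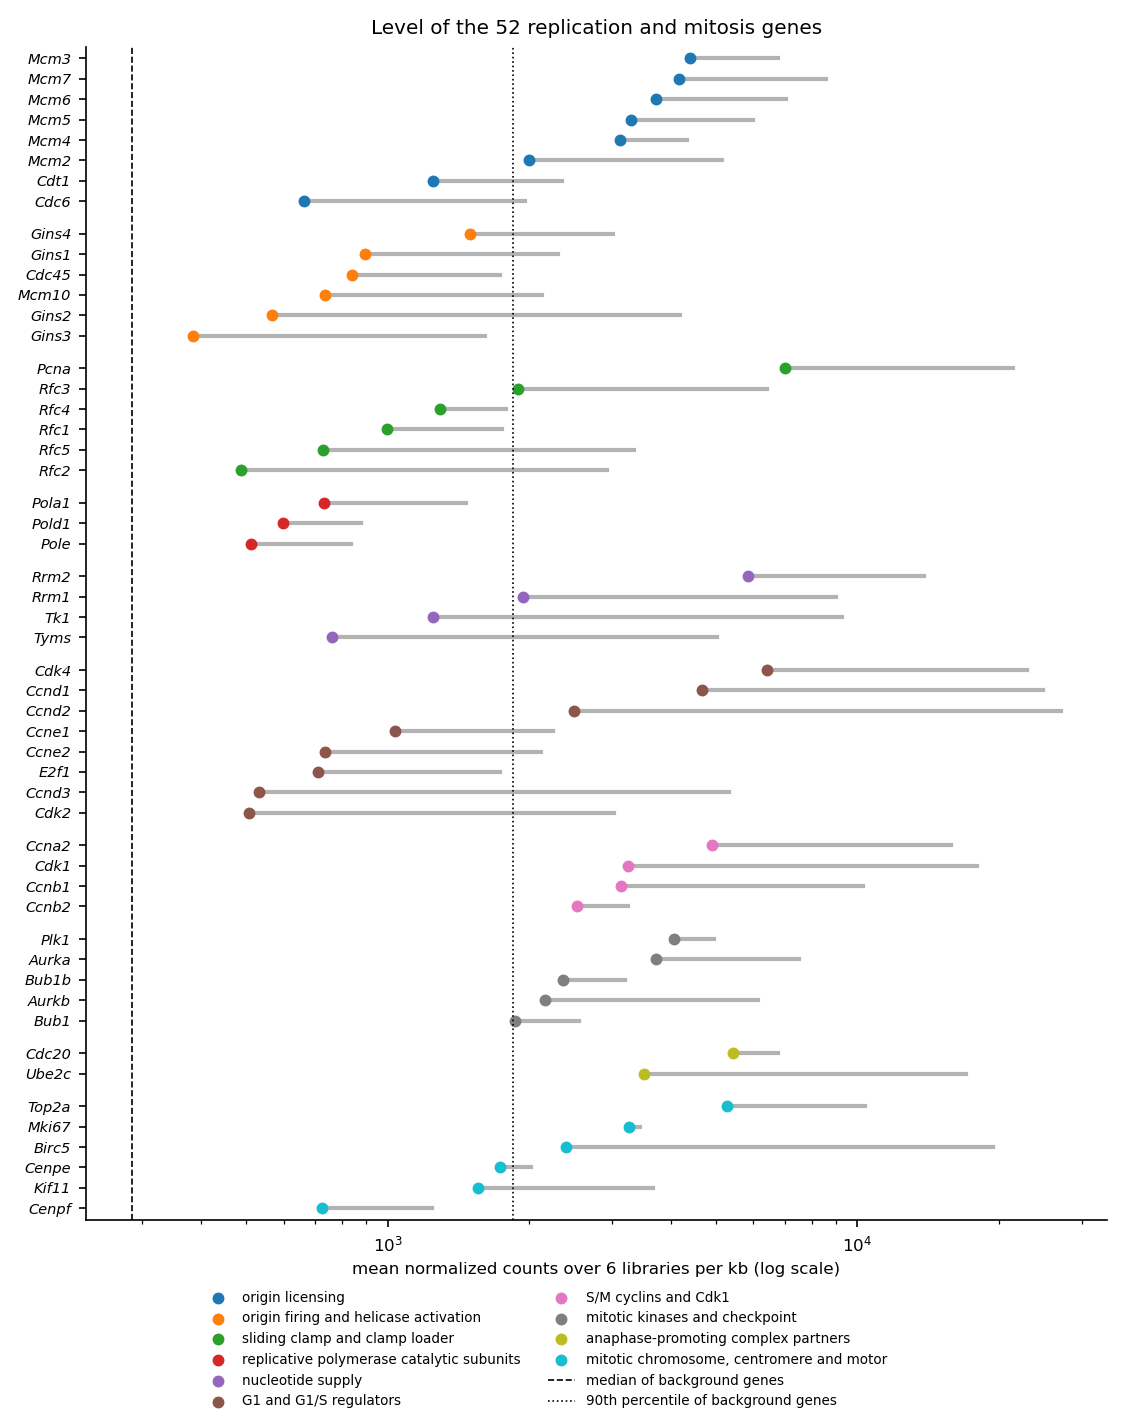
Level of each of the 52 members, in mean normalized counts over 6 libraries per kb on a log scale, by role; points use all annotated exons and grey bars reach from the lowest to the highest value over 4 gene lengths. Every point lies to the right of the dashed background median of 286 per kb, and 27 lie beyond the dotted 90th percentile of 1843 per kb.

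Genes of origin licensing were high, with a median percentile of 94.7 over 8 members. The 6 subunits of the MCM2-7 helicase, which is loaded at origins as a double ring and later unwinds the DNA, all lay in the highest 10% of the background. *Mcm3* was highest at 4397 per kb and *Mcm7* next at 4176 per kb. *Mcm6* had 3716 per kb and *Mcm5* 3297 per kb. *Mcm4* had 3117 per kb and *Mcm2* was lowest at 2003 per kb. The ring holds each subunit once, and the levels of its 6 genes lay within a 2.20-fold range. That order was not stable: with coding length *Mcm7* was highest at 8569 per kb and *Mcm4* lowest at 4326 per kb. The loaders were lower than every ring subunit under all 4 lengths. *Cdt1*, which brings the helicase to origins and is degraded in S phase, had 1248 per kb, and *Cdc6*, the ATPase that loads it together with the origin recognition complex, had 663 per kb.

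Genes of origin firing and helicase activation stood well below the ring they act on. Their median percentile was 75.4 over 6 members, and the median of the 6 ring subunit genes was 4.46-fold higher per kb than their median, and 2.88-fold higher with coding length. Every ring subunit exceeded every one of these 6 genes under all 4 lengths, although with coding length the smallest gap, *Mcm4* over *Gins2*, was only 1.03-fold. *Cdc45*, which joins GINS and MCM2-7 in the active helicase, had 839 per kb. *Mcm10*, which helps the assembled helicase to start, had 734 per kb. The 4 GINS genes encode a complex with a single copy of each subunit, and their levels spanned 3.90-fold, from 1498 per kb for *Gins4* to 385 per kb for *Gins3*. *Gins1* had 893 per kb and *Gins2* 568 per kb. *Gins2* moved to the top of the complex, at 4195 per kb with coding length and at 1739 per kb with exon bases not shared with another gene, and 67.3% of its exon bases are shared with the annotated exons of *Gse1*, so its reads are uncertain. *Gins3* was lowest of the 4 under each length.

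The clamp gene *Pcna*, whose ring-shaped product holds polymerases on the DNA, exceeded each gene of its loader. The 5 genes of the RFC clamp loader ranged from 1897 per kb for *Rfc3* to 488 per kb for *Rfc2*, a 3.89-fold range. *Rfc4* had 1290 per kb, the large subunit gene *Rfc1* 998.5 per kb and *Rfc5* 727 per kb. *Pcna* was 3.69-fold above *Rfc3*, and 3.35-fold above it with coding length, where the gap was smallest. *Rfc3* led the loader genes under all 4 lengths, while the lowest was *Rfc1* with coding length and *Rfc2* with the other 3. Processed pseudogenes *Pcna-ps1* and *Pcna-ps2* are annotated, and reads could be split with them.

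The catalytic subunits of the replicative polymerases were the lowest of the 10 roles, at a median percentile of 68.9. *Pola1*, which extends the RNA primers, had 732 per kb. *Pold1*, the polymerase of the lagging strand, had 597 per kb, and *Pole*, the polymerase of the leading strand, 512 per kb. They kept the order *Pola1*, *Pold1*, *Pole* under all 4 lengths, and the median of the role was lowest of the 10 roles under each of them. Even *Mcm2* was 2.73-fold above *Pola1* per kb.

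**Figure D2:**
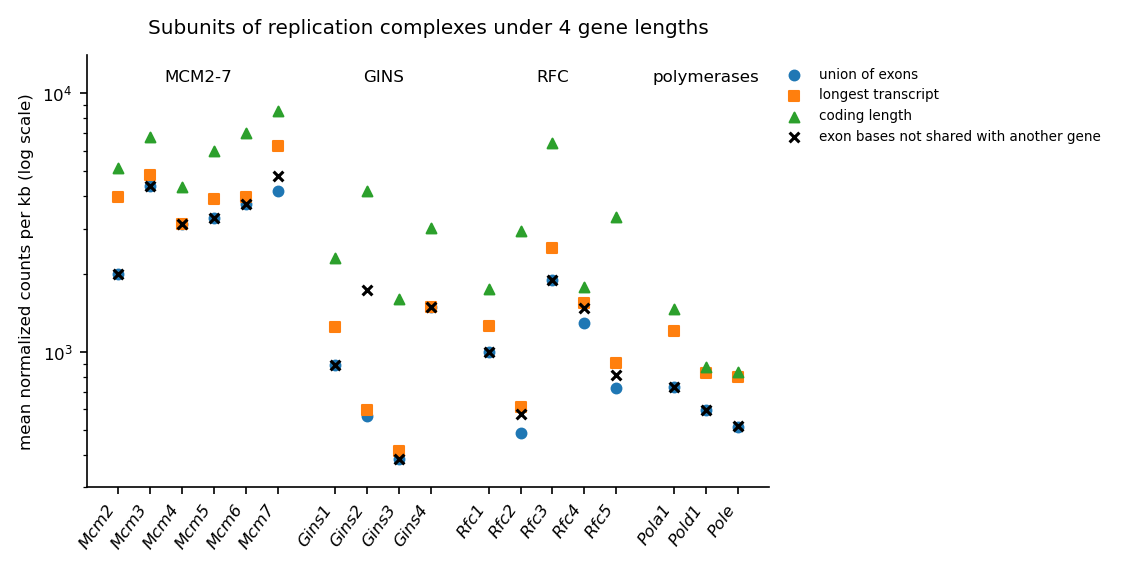
Level of each subunit gene of MCM2-7, GINS, RFC and of the replicative polymerases, in mean normalized counts per kb on a log scale, with 4 definitions of gene length as symbols. The 6 MCM2-7 genes lie above the GINS and polymerase genes with the same symbol, and *Gins2* moves most within its complex, from 568 to 4195 per kb.

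Enzymes of nucleotide supply had a median percentile of 87.4. Ribonucleotide reductase makes deoxyribonucleotides from ribonucleotides. The gene of its small subunit, *Rrm2*, had 5853 per kb and led this role under all 4 lengths. *Rrm1*, the large subunit, had 1942 per kb. *Rrm2* was 3.01-fold above *Rrm1*, and from 1.54-fold to 3.01-fold over the 4 lengths. *Tk1*, the thymidine kinase of the salvage route, had 1249 per kb and *Tyms*, which makes thymidylate from deoxyuridylate, 760 per kb. *Tk1* was above *Tyms* under each length, by at least 1.64-fold.

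Promoters of the replication genes often held an E2F motif. Promoter sequences from RefSeq on GRCm38.p6, 250 bases before and 50 bases after the start of each gene, were matched by symbol for 41 of the 52 members and gave 43 promoters, 2 each for *Mcm7* and *Ccnd3*. *Aurkb*, *Ccna2*, *Ccnd1*, *Ccnd2*, *Ccne2*, *Gins1*, *Gins2*, *Gins4*, *Mcm4*, *Pole* and *Rfc2* had no entry. The letters TTTCCCGC, TTTGGCGC and TTTCGCGC, forms of the site that E2F factors bind, were searched on both strands. They were found in 10 of 22 promoters of replication genes, or 45.5%. The same letters were found in 606 of all 32851 promoters, or 1.84%, and in 3.47% of the 10789 promoters of genes with a mean of at least 10. The genes with a match were *Cdc6*, *Cdt1*, *Gins3*, *Mcm3*, *Mcm5*, *Mcm6*, *Mcm7*, *Pola1*, *Pold1* and *Rfc3*, and 5 of the 10 promoters held more than 1 match. Licensing genes supplied 6 of the 10. A match describes letters in the window, and binding was not tested.

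Where the E2F letters lay close to the start, the windows show how the matches sit. *Mcm6* is shown over the 120 bases before its start, which no annotated exon reaches (chr1:128359706-128359825, minus strand). It held 3 E2F matches, of which 2 run into each other from opposite strands through a shared GCGC, and 2 CCAAT boxes. *Mcm5* held the same kind of overlap further upstream, with matches 153 and 149 bases before the start used. That start lies 60 bases from the nearest start annotated in GENCODE. *Mcm5* is shown from 162 to 133 bases before the start used (chr8:75109347-75109376, plus strand). *Gins3* held an E2F match 41 bases before its start and the CHR letters TTTGAA, described below for mitosis genes, 28 bases before it (chr8:95633507-95633536, plus strand). *Rfc3* held TTTCGCGC 10 bases before its start (chr5:151651209-151651238, minus strand). The *Gins3* and *Rfc3* windows lie inside annotated exons of other transcripts of these genes and are shown over 30 bases. Sequences run 5′ to 3′ along the gene, and capitals mark E2F, CHR and CCAAT matches in either orientation.
*Mcm6*: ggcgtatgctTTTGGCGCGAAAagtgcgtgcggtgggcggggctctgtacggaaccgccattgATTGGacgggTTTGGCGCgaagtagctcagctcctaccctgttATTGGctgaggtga
*Mcm5*: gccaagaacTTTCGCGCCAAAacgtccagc
*Gins3*: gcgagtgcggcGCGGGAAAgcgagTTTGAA
*Rfc3*: ccggaagtgacgtcgcacgcTTTCGCGCtc

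Regulators of G1 and of entry into S phase spanned a wide range, 12.7-fold per kb over 8 members, and from 12.5-fold to 15.7-fold over the 4 lengths. *Cdk4*, the kinase that D cyclins activate in G1, had 6416 per kb. *Cdk2*, the partner of the E cyclins, was the lowest of this role at 506 per kb, whereas *E2f1* was lowest with the longest transcript and with coding length. *Cdk1*, the kinase of mitosis, lay between them at 3241 per kb. The order *Cdk4*, *Cdk1*, *Cdk2* held under all 4 lengths, with *Cdk4* from 7.57-fold to 15.7-fold above *Cdk2*. *Cdk4* shares 19.7% of its exon bases with a neighbouring gene, *Tspan31*.

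Cyclins differed by type. Among D cyclins, *Ccnd1* had 4667 per kb, *Ccnd2* 2495 per kb and *Ccnd3* 533 per kb. *Ccnd3* was lowest of the 3 under all 4 lengths, and *Ccnd1* was 4.65-fold to 11.0-fold above it, whereas the order of *Ccnd1* and *Ccnd2* turned with coding length. Of the E cyclins, which drive entry into S phase, *Ccne1* had 1034 per kb and *Ccne2* 735 per kb. *Ccna2*, the cyclin of S phase and G2, was highest of all 8 cyclins at 4910 per kb, although *Ccnd1* passed it with exon bases not shared with another gene, and *Ccnd1* and *Ccnd2* did with coding length. The B cyclins of mitosis had 3138 per kb for *Ccnb1* and 2532 per kb for *Ccnb2*. Each of *Ccna2*, *Ccnb1*, *Ccnb2* and *Cdk1* exceeded each of *Ccne1*, *Ccne2* and *Cdk2* under all 4 lengths, by at least 1.07-fold. *E2f1*, the factor that activates many replication genes, had 709 per kb, percentile 73.1.

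Of the G1 and G1/S regulators, 6 promoters were searched. An E2F match was found in 1 of them, that of *Cdk2*, and no CHR match in any. *E2f1*, *Ccne1*, *Cdk4* and 1 of the 2 *Ccnd3* promoters held none of the E2F, CHR and CCAAT letters searched. Such an absence speaks only of these letters in this window. For *E2f1* the start used lies 294 bases from the nearest start annotated in GENCODE, which is outside the window. Of the 43 member promoters, 38 lie within 50 bases of an annotated start. Besides *E2f1*, those further away were *Pcna* at 134 bases, *Tk1* at 78, 1 of the 2 *Mcm7* promoters at 65 and *Mcm5* at 60.

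Genes of mitosis were high as well. The median percentile was 94.6 for the S/M cyclins and *Cdk1*, 92.6 for mitotic kinases and checkpoint genes, 96.3 for partners of the anaphase-promoting complex, and 91.0 for genes of the mitotic chromosome, centromere and motors. All 5 mitotic kinase and checkpoint genes lay in the highest 10% of the background. *Plk1*, a kinase of spindle assembly and cytokinesis, had 4071 per kb. *Aurka*, the Aurora kinase of the spindle poles, had 3717 per kb, and *Aurkb*, the Aurora kinase of the chromosomal passenger complex, 2161 per kb. *Aurka* was above *Aurkb* under each length. The spindle checkpoint genes *Bub1b* and *Bub1* had 2360 and 1865 per kb, and *Bub1b* was higher under each length. The lowest of these 5 genes, *Bub1*, was 2.55-fold above the highest polymerase gene, *Pola1*.

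The anaphase-promoting complex marks cyclin B and securin for destruction. Its activator gene *Cdc20* had 5432 per kb, and the gene of its ubiquitin-conjugating enzyme, *Ube2c*, 3520 per kb. Which was higher depended on length, with *Ube2c* from 0.648 to 2.51 times *Cdc20*, and *Ube2c* shares 22.8% of its exon bases with *Tnnc2*. Of genes acting on mitotic chromosomes, *Top2a*, the topoisomerase that untangles sister DNA, had 5274 per kb. *Mki67*, whose product coats mitotic chromosomes and is a common marker of cycling cells, had 3266 per kb. *Birc5*, or survivin, of the chromosomal passenger complex had 2398 per kb. The kinesin genes *Cenpe*, which carries chromosomes to the spindle equator, and *Kif11*, which pushes the spindle poles apart, had 1732 and 1554 per kb. *Cenpf*, a long kinetochore protein, was lowest of this role at 723 per kb, percentile 73.7. *Cenpf* had a mean of 11162 normalized counts, and its exon length of 15433 bases was the longest of the members. In these bulk libraries a smaller share of dividing cells and less RNA of a gene per cell cannot be told apart.

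The cell cycle genes homology region (CHR), a motif bound by the DREAM and MuvB complexes, was searched as TTTGAA and TTCGAA on both strands. TTCGAA reads the same on both strands. A CHR match was found in 12 of 15 promoters of mitosis genes, or 80.0%, against 5 of 22 promoters of replication genes, or 22.7%. It was found in 19.2% of all 32851 promoters and in 13.7% of those of genes with a mean of at least 10. The 12 genes were *Aurka*, *Bub1*, *Bub1b*, *Ccnb2*, *Cdc20*, *Cdk1*, *Cenpf*, *Kif11*, *Mki67*, *Plk1*, *Top2a* and *Ube2c*. In *Ccnb1*, *Cenpe* and *Birc5* these letters were not in the window. An E2F match was found in 1 of the 15, that of *Cdk1*.

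CCAAT boxes, the letters bound by NF-Y, accompanied the CHR. CCAAT was found on either strand in 14 of 15 promoters of mitosis genes, or 93.3%, in 15 of 22 of replication genes, or 68.2%, in 38.4% of promoters of genes with a mean of at least 10 and in 37.4% of all promoters. A CHR together with 2 or more CCAAT boxes was found in 9 of 15 promoters of mitosis genes, or 60%, and in 3 of 22 of replication genes, or 13.6%. That pair was found in 2.31% of all promoters and in 2.26% of those of genes with a mean of at least 10. The TATA box letters TATAAA were found in none of the 15, in 7.03% of promoters of genes with a mean of at least 10 and in 13.6% of all promoters. They were found in 1 of the 43 member promoters, that of *Cdc45*. In the member promoters E2F letters shared bases with a CCAAT match once, in *Mcm7*, and CHR letters shared bases with no other motif searched.

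**Figure D3:**
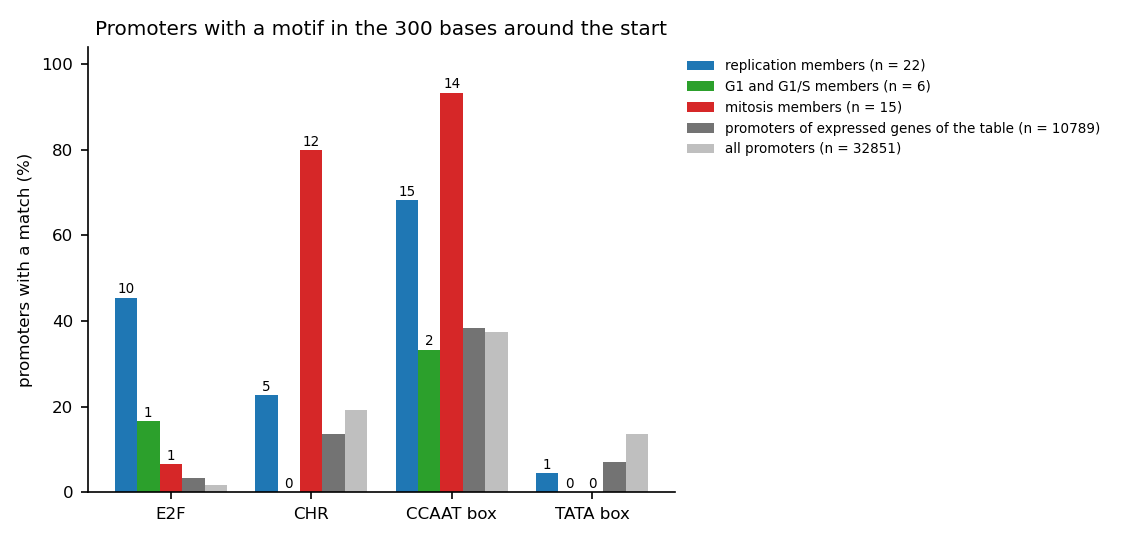
Share of promoters, in percent, with a match to each motif in the 300 bases around the start, for replication, G1 and G1/S, and mitosis members, for genes with a mean of at least 10 (expressed) and for all promoters; digits above bars are numbers of promoters. E2F letters lie in 10 of 22 replication promoters and CHR letters in 12 of 15 mitosis promoters, against 1.84% and 19.2% of all promoters.

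The CHR letters lay near the start. Over the 19 matches in mitosis promoters the median was 23 bases before the start, and 13 lay between 100 bases before it and the end of the window. Of the 12 genes, 6 held a match wholly within the 120 bases before the start. *Top2a* held 2 CHR matches and 3 CCAAT boxes there (chr11:99024190-99024309, minus strand). *Mki67* held 2 CHR matches 98 and 116 bases before the start (chr7:135716380-135716499, minus strand). *Kif11* held 1 CHR match 19 bases before it, in reverse orientation (chr19:37376262-37376381, plus strand). No annotated exon reached these windows. *Cdk1* (chr10:69352913-69352942, minus strand), *Cdc20* (chr4:118437344-118437373, minus strand) and *Ube2c* (chr2:164769888-164769917, plus strand) are shown over 30 bases around the match nearest the start. An annotated exon of the same gene overlaps each of these windows. Capitals again mark CHR and CCAAT matches in either orientation.
*Top2a*: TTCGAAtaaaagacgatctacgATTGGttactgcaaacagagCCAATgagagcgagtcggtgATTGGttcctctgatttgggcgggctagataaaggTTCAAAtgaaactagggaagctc
*Mki67*: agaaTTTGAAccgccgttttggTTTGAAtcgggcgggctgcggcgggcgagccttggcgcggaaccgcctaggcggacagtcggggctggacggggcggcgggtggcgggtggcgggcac
*Kif11*: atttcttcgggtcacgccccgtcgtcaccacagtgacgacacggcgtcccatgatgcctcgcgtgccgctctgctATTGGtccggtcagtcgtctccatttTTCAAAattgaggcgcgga
*Cdk1*: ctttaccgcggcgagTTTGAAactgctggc
*Cdc20*: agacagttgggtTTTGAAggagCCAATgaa
*Ube2c*: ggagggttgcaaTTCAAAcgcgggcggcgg

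**Figure D4:**
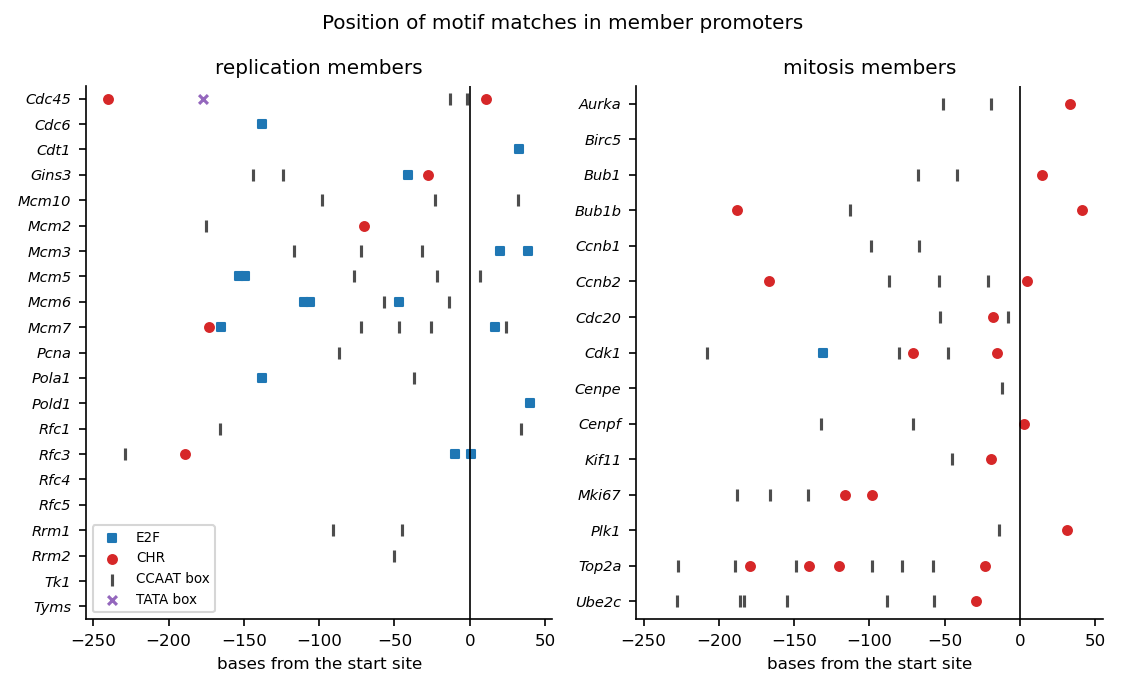
Distance in bases of each motif match from the start site, along the gene, in the promoters of replication members (left) and mitosis members (right); each symbol marks the side of a match farther upstream. In mitosis members CHR matches sit at a median of 23 bases before the start and CCAAT boxes at a median of 80.0 bases before it.

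Member promoters were rich in CpG, as were most promoters of genes with a mean of at least 10. The median was 24 CpG in the 300 bases, against 20 for genes with a mean of at least 10 and 7 over all promoters. All 43 member promoters lay above the median of all promoters, beside 8911 of the 10789 promoters of genes with a mean of at least 10. Above the median of those 10789 lay 30 of 43 member promoters and 5334 of the 10789 themselves. The median share of G and C was 60% for member promoters and 60.7% for those 10789. *Mcm3* and *Tk1* had the fewest, 8, and *E2f1*, whose window lies off the annotated start, the most, 48. Members with a CHR match had a median level of 2532 per kb over 17 genes, and the 24 without one had 1249 per kb. With a CCAAT box the median was 2446 per kb over 30 genes, and without one 1034 per kb over 11. For E2F letters the order was the other way, 1572 per kb over 12 genes with a match and 1942 per kb over 29 without. Mitosis genes were 12 of the 17 with a CHR and 14 of the 30 with a CCAAT box, which 14 of 15 mitosis genes held, and replication genes were 10 of the 12 with E2F letters. Replication genes stood on both sides: of 21 searched, 14 held a CCAAT box and 10 held E2F letters. Levels with and without a motif were not compared within a role, so how motif and role each go with these differences was not tested.

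Other genes of the same machinery, in 6 lists, had lower median percentiles than the 90.2 of the members. Of the 6 genes of the origin recognition complex, which marks origins for the MCM ring, 5 were analysed and had a median percentile of 56.5. *Orc6* was highest at 1870 per kb and *Orc4* lowest at 92.4 per kb, and the median of the MCM2-7 genes was 9.43-fold above theirs. That gap was 6.05-fold with the longest transcript and 3.63-fold with coding length, and under every length but all exons the highest of the 5 genes exceeded the lowest MCM2-7 gene. Other licensing and firing factors had a median percentile of 73.7 over 10 of 11 genes. Among them the fork protection gene *Tipin* was highest, at 2186 per kb, and the helicase gene *Recql4* lowest, at 366 per kb. Further polymerase subunits and fork enzymes had a median percentile of 83.0 over 14 genes, above the 68.9 of the catalytic subunits. They ran from *Rpa1*, the large subunit that coats single-stranded DNA, at 2538 per kb, to the primase subunit gene *Prim2* at 438 per kb.

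Nucleotide enzymes outside the members had a median percentile of 76.0 over 7 genes. *Dut*, which removes dUTP, was highest at 1604 per kb. *Rrm2b*, the reductase small subunit that serves cells outside S phase, was lowest at 105 per kb, beside 5853 per kb for *Rrm2*. The other 7 E2F factors had a median percentile of 62.5, from the repressor *E2f4* at 1859 per kb to *E2f2* at 85.0 per kb. Kinetochore and condensin genes had a median percentile of 78.9 over 12 of 13 genes, from the condensin gene *Smc4* at 3275 per kb to *Spc24*, of the kinetochore, at 342 per kb. Of 4 paralogs used in the germ line that were analysed, 3 were near 0 and below the minimum of 10: *Aurkc* had a mean of 1.25 normalized counts, *Sycp3* 0.506 and *Dmc1* 0.147, while *Spo11* had 52.5. *Orc1*, *Ticrr*, *Cenpa*, *Ccna1*, *Ccnb3*, *Smc1b* and *Rec8* were not analysed here for level.

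In promoters of these lists, E2F letters were found in 2 of 9 promoters of the origin recognition complex, 2 of 8 of other licensing and firing factors, 5 of 18 of polymerase subunits and fork enzymes, and 0 of 5 of nucleotide enzymes, beside 10 of 22 for the replication members. They were found in 3 of 7 promoters of other E2F factors and 2 of 12 of kinetochore and condensin genes. CHR letters were found in 9 of 12 promoters of kinetochore and condensin genes, beside 12 of 15 for the mitosis members. They were also found in 3 of 8 promoters of other licensing and firing factors, 3 of 7 of other E2F factors, 2 of 5 of nucleotide enzymes, 2 of 18 of polymerase subunits and fork enzymes, and 0 of 9 of the origin recognition complex. The germ-line paralogs held E2F letters in 2 of 7 and CHR letters in 1 of 7. Promoters of the same gene were counted separately. The 5 of 18 with E2F letters belonged to *Lig1*, *Pold3*, *Pole2* and *Pole4*. The 3 of 8 with CHR letters belonged to *Cdc7* and *Dbf4*. The 9 of 12 belonged to *Bub3*, *Cenpa*, *Ncapd2*, *Ncapg*, *Ndc80*, *Smc2*, *Spc25* and *Ttk*. Over all promoters E2F letters were found in 1.84% and CHR letters in 19.2%. For genes with a mean of at least 10 the shares were 3.47% and 13.7%.

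**Figure D5:**
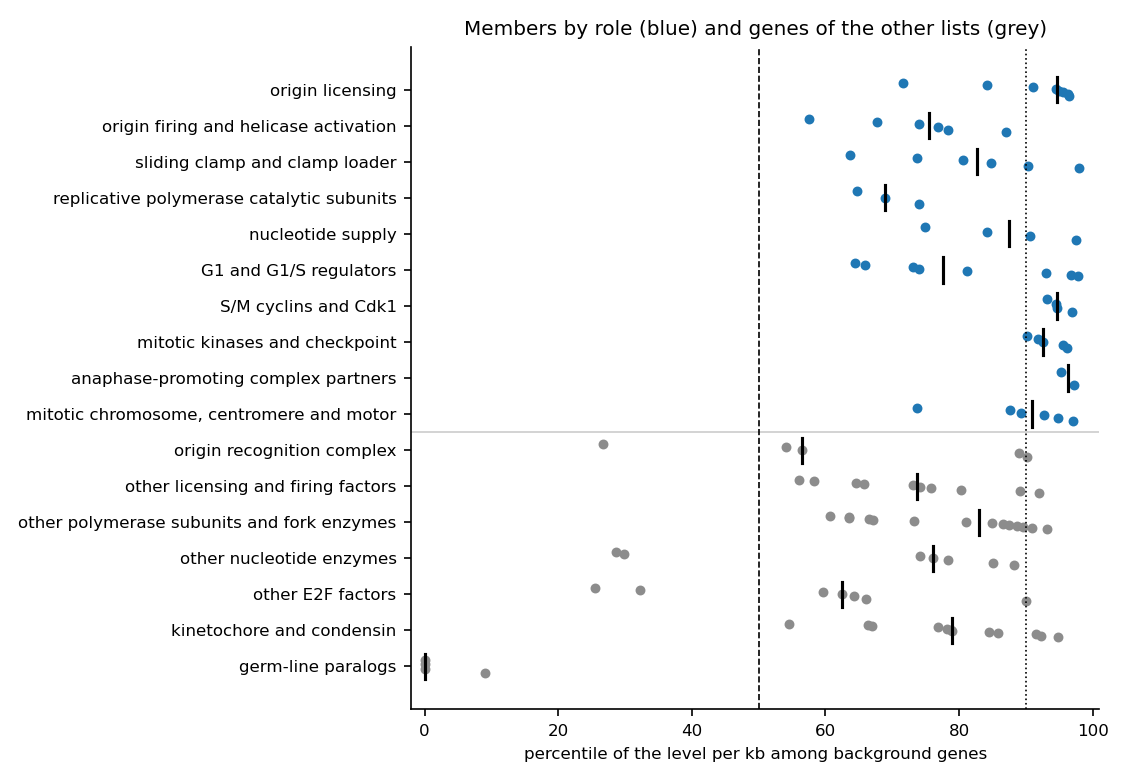
Percentile of each gene's level per kb among the 10637 background genes, for the members by role (blue) and for genes of other lists (grey); black bars are medians, and the dashed and dotted lines mark percentiles 50 and 90. The 4 mitotic roles and origin licensing have medians above 90, and polymerase catalytic subunits the lowest median of the members, 68.9.

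The members lay on 17 chromosomes, with 8 on chromosome 2, 7 on chromosome 5 and 6 on chromosome 7. The closest pair was *Tk1* and *Birc5*, 23158 bases apart on chromosome 11, and next came *Cdc6* and *Top2a*, 69002 bases apart on the same chromosome. The level of *Top2a* was 5274 per kb and that of its neighbour *Cdc6* 663 per kb. Exon bases shared with another annotated gene were found for 19 members and exceeded 20% in 3, *Gins2*, *Ccnd1* and *Ube2c*. Processed pseudogenes named after *Ccnb1*, *Ccnb2*, *Ccnd3* and *Tyms* are also annotated, and the reads of these genes are uncertain to that extent.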

How the data were processed

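RNA-seq was performed by the authors on 3 *Ms4a15* OE and 3 control libraries. Per the study's methods, the authors aligned the reads to mm10 with STAR 2.4.2a, counted reads per UCSC gene with HTSeq-count 0.6.0 and used DESeq2. The labels also list TopHat, Cufflinks and Cuffdiff, and the strand setting of the counting is not given in the sources used here. The signal used from the deposited table is the authors' average, across the 6 libraries, of each gene's depth-normalized counts. Its other columns hold the authors' comparison of *Ms4a15* OE with control (log2 fold change, its standard error, p-value, adjusted p-value and direction) and were not used. Per-library values were not used here, so the planned test of *Ms4a15* OE against control was not run.

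Size factors, not assigned to libraries, were read from the 6 lowest recurrent means (1 read in 1 library) and ran from 0.887 to 1.14. Levels per kb used the union of exons in GENCODE M21 (GRCm38, the build of mm10). An exon length was found for all 52 members and for 82.4% of genes with a mean of at least 10. The procedures were tested on simulated data. Alternatives were other minimum means, other gene lengths and a narrower promoter window.

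The members and lists were chosen with earlier results of these data known. All members are named by role, with values for the highest and lowest of each role, MCM2-7, cyclins and CDKs; of other lists the highest and lowest gene are named. Further values, motif matches and windows were chosen after the values were seen. Windows shown are the 120 bases before the start of mitosis genes with a CHR, and replication genes with an E2F match, wholly within them, or 30 bases where an annotated exon overlaps or 2 matches run into each other further upstream. Python 3.11.15, numpy 2.4.6, pandas 2.3.3, scipy 1.17.1 and matplotlib 3.10.9 were used.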

Additional observations from a re-analysis of the deposited data

How the results depend on the processing

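The median percentile of the members, 90.2, was 92.9 with no minimum mean and 88.6 with a minimum of 100. It was 89.95 with the longest transcript, 84.2 with coding length and 90.4 with no length correction. With only exon bases not shared with another gene, an alternative chosen after seeing the data, it was 89.2. The number of members in the highest 10% of the background, 27, ran from 18 with coding length to 30 with no minimum mean. All 52 members stayed above the background median except with coding length or no length correction, where 50 did. The range over the MCM2-7 genes, 2.20-fold, was 2.0-fold with the longest transcript, 1.98-fold with coding length and 2.39-fold with exon bases not shared. In the 100 bases before the start and the bases after it, a CHR was found in 3 replication promoters in place of 5, and an E2F match in 0 mitosis promoters in place of 1. The 12 mitosis promoters with a CHR stayed at 12, while those with 2 or more CHR matches went from 5 to 1. E2F matches in replication promoters went from 10 to 7. Promoters with a CCAAT box went from 14 to 12 for mitosis genes and from 15 to 12 for replication genes. In that shorter window CHR letters were found in 8.59% of all promoters and 5.46% of those of genes with a mean of at least 10, in place of 19.2% and 13.7%. E2F letters were found in 1.01% and 1.84%, in place of 1.84% and 3.47%, and CCAAT in 23.4% and 25.5%, in place of 37.4% and 38.4%. The cause of these shifts was not tested.

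No paired analysis was possible because per-library values were not used here. For the same reason the replicate block, leaving out each replicate, a second test and the filter on low counts were not run. Spread between libraries is unknown for every level given.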
